A study of Mus musculus with 12 samples.

Results

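The co-inhibitory receptors and ligands are 10 genes of the 52635 in the deposited expression table, chosen by name as receptors that restrain T cells or as ligands of such receptors. They are Pdcd1, Lag3, Tigit, Cd96, Btla, Havcr2, Cd160 and Cd244, which encode receptors, and Cd274 and Cd200, which encode ligands. Earlier results of these data were known when these genes were chosen. Shares of members set beside those of all tested genes are therefore descriptive only. All 10 symbols were found in the table, and 7 of them, each at 1 FPKM or more in all 12 libraries, passed the filter on low values and were tested. The samples were 12 RNA-seq libraries of naive CD4 T cells taken from mice of the inbred strain C57BL/6. Purity was over 95%, per the labels' protocols. Cells of every group were activated for 24 h through CD3 and CD28, in medium whose serum had been stripped with charcoal, which removes most retinoids. The medium also held TGF-β1 and TNFα (5 ng/mL each), IL-23, IL-21 and IL-1β (10 ng/mL each), IL-6 (20 ng/mL) and antibodies to IL-4 and IFNγ (10 µg/mL each), a mixture that favours the interleukin-17-producing Th17 state. The 6 groups, each of 2 libraries, were RARα KO with 10 nM retinoic acid (RA), RARα KO without RA, RARα TG with 10 nM RA, RARα TG without RA, WT with 10 nM RA and WT without RA. RARα, the product of Rara, is a nuclear receptor for RA. The allele behind the KO label, the construct and promoter behind the TG label, and the ages and numbers of mice were not given in the sources used here. Rara stood at 126 and 119 FPKM in TG libraries with RA and at 72.8 and 63.3 without RA. It stood at 16.8 and 17.6 FPKM in KO-labelled libraries with RA and at 19.5 and 19.3 without RA, against 12.3 and 14.2 in WT with RA and 16.5 and 18.9 without RA. The KO label is therefore used only as a label, since the value summed over the gene was not lower than in WT.

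Co-inhibitory receptors appear on T cells after activation and dampen signals from the T-cell receptor and CD28, mostly by bringing phosphatases or other proteins to the membrane through motifs in their tails. PD-1 (Pdcd1) binds PD-L1 (Cd274) and PD-L2. TIGIT and CD96 bind ligands of the nectin family, for which the activating receptor CD226 competes, and LAG-3 binds class II molecules of the major histocompatibility complex. BTLA and CD160 bind HVEM, TIM-3 (Havcr2) binds galectin-9 among other ligands, 2B4 (Cd244) binds CD48, and CD200 is the ligand of the inhibitory receptor CD200R1. RA receptors bind DNA as pairs with retinoid X receptors at repeated half-sites, of which AGGTCA is the best known form.

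The sequences before the start sites of 5 members are given because these genes differed between TG libraries with and without RA under all 10 alternatives, with Cd96, Tigit, Cd274 and Pdcd1 higher and Btla lower with RA, as the values below show. They are the 250 bases before the RefSeq start on GRCm38.p6, read 5′ to 3′ on the gene's strand. Cd96 lies on the minus strand (chr16:46120249-46120498), as do Tigit (chr16:43664185-43664434) and Pdcd1 (chr1:94052554-94052803). Cd274 (chr19:29367188-29367437) and Btla (chr16:45224087-45224336) lie on the plus strand. Capitals mark a half-site, here always on the opposite strand, so that its reverse complement is printed.
Cd96: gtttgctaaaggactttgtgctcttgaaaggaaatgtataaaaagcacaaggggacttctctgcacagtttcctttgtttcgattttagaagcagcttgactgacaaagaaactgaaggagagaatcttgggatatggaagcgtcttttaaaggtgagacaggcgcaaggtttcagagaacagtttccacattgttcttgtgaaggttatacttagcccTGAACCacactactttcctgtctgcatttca
Tigit: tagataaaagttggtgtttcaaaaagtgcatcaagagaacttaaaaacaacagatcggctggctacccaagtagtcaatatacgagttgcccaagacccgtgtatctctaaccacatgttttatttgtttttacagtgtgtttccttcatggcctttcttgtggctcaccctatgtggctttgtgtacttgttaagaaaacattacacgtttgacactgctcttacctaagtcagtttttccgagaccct
Cd274: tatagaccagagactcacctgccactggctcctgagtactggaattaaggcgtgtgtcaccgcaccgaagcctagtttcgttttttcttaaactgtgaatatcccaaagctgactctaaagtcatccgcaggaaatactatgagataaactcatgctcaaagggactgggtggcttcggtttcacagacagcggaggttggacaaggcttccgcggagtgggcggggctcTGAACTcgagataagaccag
Pdcd1: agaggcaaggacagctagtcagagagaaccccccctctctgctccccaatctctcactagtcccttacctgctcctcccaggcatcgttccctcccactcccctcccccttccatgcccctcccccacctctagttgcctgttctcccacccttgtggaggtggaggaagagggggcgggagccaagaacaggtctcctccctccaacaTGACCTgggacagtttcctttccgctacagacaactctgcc
Btla: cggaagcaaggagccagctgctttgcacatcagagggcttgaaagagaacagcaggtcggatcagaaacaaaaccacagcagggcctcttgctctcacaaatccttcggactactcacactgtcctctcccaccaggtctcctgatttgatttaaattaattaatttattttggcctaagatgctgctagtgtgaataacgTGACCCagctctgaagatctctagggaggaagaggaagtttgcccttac
The half-sites searched were AGGTCA and its variants GGGTCA, then AGTTCA, then GGTTCA, on both strands, in the window from 250 bases before to 50 bases after the start. Positions are those of the first base of the match on the gene's strand, and the base before the start is -1. Cd96 held GGTTCA at -31, Cd274 held AGTTCA at -20, Pdcd1 held AGGTCA at -41 and Btla held GGGTCA at -49, while the Tigit window held none. Among the other members with an entry, Havcr2 held AGGTCA at -84 and the second of the Cd160 entries held GGTTCA at -229. The Cd200 and Cd244 windows and the other Cd160 window held none of the 4. Of all 32817 windows of this kind, 43.7% held at least 1 of the 4 half-sites: 16.3% held AGGTCA, 13.7% GGGTCA, 14.0% AGTTCA and 10.4% GGTTCA. No member's window held a pair of half-sites in the same direction 1, 2 or 5 bases apart, arrangements found in 0.222, 0.268 and 0.0975% of all windows. The AP-1 motif TGACTCA, which shares no half-site, was found only in the Cd244 window among those of the members, at -122, and in 5.2% of all windows. Entries were matched for 9 of the 10 members, all but Lag3.

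Low genes moved in steps of 1 read, and these steps placed the depth by which each library had been scaled between 16289969 and 25534588 reads. Values are FPKM, reads scaled to exon length and library depth, so levels of different genes can be set side by side. The labels do not say that the 2 libraries of a group came from separate mice, so the p-values speak only to the spread from library to library. Xist, transcribed from the inactive X chromosome, marked all 4 KO-labelled libraries, replicate 2 of TG at both doses and no WT library. Between KO-labelled and WT libraries, sex and label therefore cannot be told apart. The 7 T-cell markers summed to 630 to 736 FPKM over the 12 libraries, with Cd4 itself at 46.6 to 87.7, and the CD8 markers Cd8a and Cd8b1 to 1.55 to 4.18. The 10 B-cell markers differed between replicates of a group, with sums of 5.67 and 32.7 FPKM in WT with RA and 4.54 and 33.2 in WT without RA.

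The members covered a wide range of levels. Pdcd1 (ENSMUSG00000026285, chromosome 1, 94038305 to 94052553, minus strand, on GRCm38) reached 31.5 to 103 FPKM, with a median of 78.2 over the 12 libraries. Btla (ENSMUSG00000052013, chromosome 16, 45224315 to 45257670) lay at 19.0 to 48.3 FPKM, Cd200 (ENSMUSG00000022661, chromosome 16, 45382135 to 45409053) at 29.8 to 47.2, and Lag3 (ENSMUSG00000030124, chromosome 6, 124904361 to 124911705) at 11.6 to 44.1. Cd96 (ENSMUSG00000022657, chromosome 16, 46035657 to 46120251) had the widest range of the tested members, 6.56 to 50.6 FPKM, with group means 6.55-fold apart. Cd274 (ENSMUSG00000016496, chromosome 19, 29367455 to 29388095) lay at 4.12 to 16.5 FPKM and Tigit (ENSMUSG00000071552, chromosome 16, 43648867 to 43664146) at 2.63 to 15.7.

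The other 3 members were barely transcribed at this depth. Havcr2 (ENSMUSG00000020399, chromosome 11, 46454935 to 46481255) was listed at 0 in 3 libraries and stood at up to 0.201 FPKM in the others, from 0 to 14 reads per library. Cd244 (ENSMUSG00000004709, chromosome 1, 171559193 to 171609746, named Cd244a in GENCODE) had 1 to 18 reads, equal to 0.0104 to 0.214 FPKM. Cd160 (ENSMUSG00000038304, chromosome 3, 96798763 to 96829351) had 11 to 50 reads. Its levels were 0.671 and 1.06 FPKM in KO-labelled libraries with RA, 0.591 and 0.633 without RA, 0.315 and 0.372 in TG with RA, 0.211 and 0.267 without RA, 0.513 and 0.674 in WT with RA, and 0.218 and 0.32 without RA. In each of the 3 genotypes both Cd160 libraries with RA lay above both without. Groups with and without RA also did not overlap in 42.3% of all tested genes in KO-labelled libraries, 71.1% in TG and 53.8% in WT. None of these 3 low genes passed the threshold of 0.05 in any of the 9 comparisons when limma was run with no filter. Cd160 came nearest there for RA in WT (0.33 ± 0.11 on the log2(FPKM + 1) scale, adjusted p = 0.18). This scale understates the change of such low genes, and no other test was run on these 3.

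**Figure D1:**
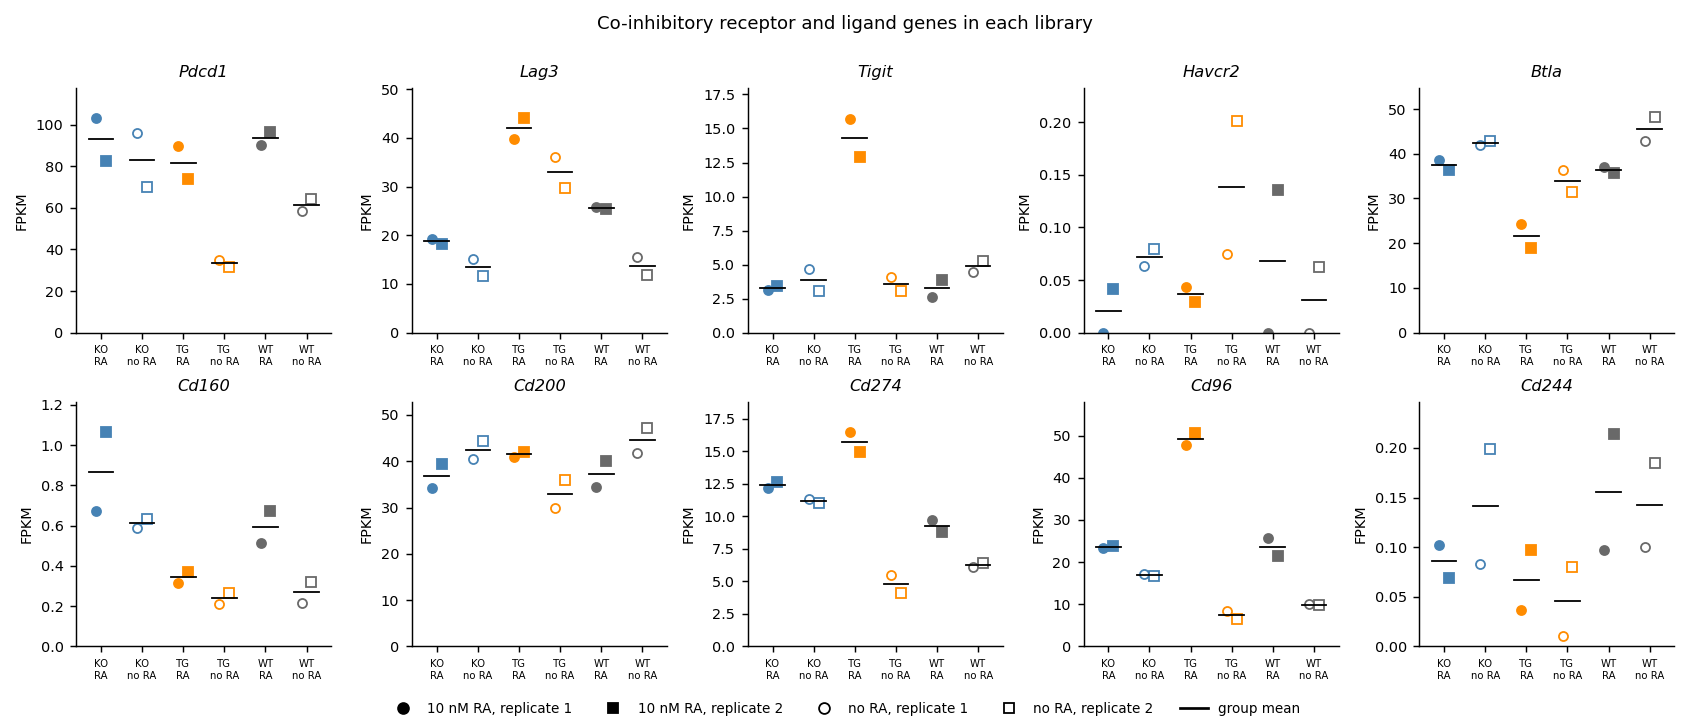
Level of each of the 10 genes in FPKM (vertical axes, linear, starting at 0 and scaled to each gene) in the 6 groups (horizontal axes). Filled symbols are libraries with 10 nM RA and open symbols libraries without, circles are replicate 1 and squares replicate 2, and lines are means of 2 libraries. Cd96, Tigit, Cd274 and Lag3 are highest in TG with RA, Btla is lowest there, and Havcr2, Cd160 and Cd244 stay near or below 1 FPKM.

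The effect of RA in TG cells, which held the most Rara, was the clearest comparison for these genes. Of the 7 tested members, 5 rose with RA, 1 fell and 1 did not pass the threshold, whereas of all 11922 tested genes 19.7% rose, 19.4% fell and 39.1% passed in either direction. The median difference of the 7 was 1.27 on the log2(FPKM + 1) scale, and that of all tested genes was -0.02. Among the receptors that bind nectins, Cd96 had 47.9 and 50.6 FPKM in TG with RA, against 8.47 and 6.56 in TG without RA. This was a log2 difference of 2.57 ± 0.11 (SE, limma adjusted p = 8.9e-07). Its partner in ligand binding, Tigit, had 15.7 and 12.9 FPKM with RA, against 4.05 and 3.05 without RA (1.75 ± 0.20, adjusted p = 0.00024). For both genes the TG libraries with RA stood above every other library of the study.

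The ligand gene Cd274 had 16.5 and 14.9 FPKM in TG with RA and 5.51 and 4.12 in TG without RA (1.53 ± 0.11, adjusted p = 1.4e-05). These were the highest and the lowest values of Cd274 among the 12 libraries. Its receptor gene Pdcd1 had 89.9 and 73.7 FPKM with RA and 35.1 and 31.5 without RA (1.27 ± 0.16, adjusted p = 0.00042). For Pdcd1 the low values were the unusual ones, since the TG libraries with RA lay within the range of the WT and KO-labelled libraries. Btla was the member that fell: 24.4 and 19.0 FPKM in TG with RA, against 36.4 and 31.4 in TG without RA (-0.63 ± 0.11, adjusted p = 0.0027). Cd96, Tigit, Cd274, Pdcd1 and Btla each passed the threshold under all 10 alternatives. Cd200 had 41.0 and 41.9 FPKM with RA, against 29.8 and 36.0 without RA (0.33 ± 0.11, adjusted p = 0.048, range over its alternatives 0.0024 to 0.25). Its call ended without TG 0 nM replicate 1 (0.20), TG 10 nM replicate 1 (0.35) or TG 10 nM replicate 2 (0.32), with no filter on low values, and with only the 4 TG libraries in the fit. Lag3 had 39.9 and 44.1 FPKM with RA and 36.1 and 29.7 without RA (0.35 ± 0.15, adjusted p = 0.10), and passed only with limma voom on recovered reads (adjusted p = 0.040, range over its alternatives 0.040 to 0.43). In 7 of the 7 tested members the groups did not overlap, as in 71.1% of all tested genes.

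Markers of other cells were measured beside these values, and their part in the differences was not tested. The B-cell markers summed to 8.08 and 11.3 FPKM in TG with RA and to 4.23 and 7.09 in TG without RA, with 0 of 8 tested markers past the threshold. The antigen-presenting and myeloid markers summed to 36.0 and 48.9 FPKM with RA and to 31.1 and 49.8 without RA, and 1 of 7 rose and 1 fell. Natural killer (NK) cells, which also carry TIGIT and CD96, were represented by 8 markers that summed to 7.52 and 9.37 FPKM with RA and to 47.9 and 54.2 without RA. Most of that sum was Klrd1, at 4.28 and 5.25 FPKM with RA and 44.4 and 50.0 without RA, whereas the NK-defining receptor gene Klrb1c was listed at 0 in 7 of the 12 libraries and Ncr1 in 2. The other 7 NK markers summed to 3.24 and 4.12 FPKM in TG with RA and to 3.48 and 4.20 in TG without RA. Of the 4 NK markers tested, 0 rose and 2 fell. In bulk RNA, fewer cells of a type and less RNA per cell cannot be told apart. Of the 7 T-cell markers, 4 rose and 2 fell, Cd4 among the rises (0.75 ± 0.07, adjusted p = 7.9e-05).

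In WT cells RA moved fewer of the genes, and mostly by less. Cd96, Lag3 and Cd274 rose, 0 members fell and 4 did not pass, and of all tested genes 6.67% rose, 3.47% fell and 10.1% passed in either direction. The median difference was 0.50 over the 7 and 0.02 over all tested genes. Cd96 had 25.7 and 21.5 FPKM in WT with RA, against 10.0 and 9.82 in WT without RA (1.16 ± 0.11 on the log2 scale, limma adjusted p = 0.00072), and passed under all 10 alternatives. The libraries with RA were thus more than 2-fold above those without, with little spread. Lag3, whose product is a relative of CD4, had 25.7 and 25.4 FPKM with RA and 15.6 and 11.8 without RA (0.86 ± 0.15, adjusted p = 0.010, range over its alternatives 0.0044 to 0.086). That call ended without WT 0 nM replicate 2 (0.68) or WT 10 nM replicate 1 (0.85), and in a fit of the WT libraries alone. Cd274 had 9.73 and 8.83 FPKM with RA and 6.08 and 6.44 without RA (0.50 ± 0.11, adjusted p = 0.023, range 0.015 to 0.13). Its call ended without WT 0 nM replicate 1 (0.47), WT 0 nM replicate 2 (0.54) or WT 10 nM replicate 1 (0.44), with no filter, and in a fit of the WT libraries alone.

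Pdcd1 missed the threshold narrowly in WT, with 90.4 and 96.6 FPKM with RA against 58.6 and 64.1 without RA (0.60 ± 0.16, adjusted p = 0.052, range over its alternatives 0.026 to 0.19). Tigit had 2.63 and 3.89 FPKM with RA and 4.46 and 5.28 without RA (-0.47 ± 0.20, adjusted p = 0.18), the opposite sign to that in TG. Btla had 37.1 and 35.7 FPKM with RA against 42.9 and 48.3 without RA (-0.32 ± 0.11, limma adjusted p = 0.12). Cd200 had 34.5 and 40.0 FPKM with RA against 41.8 and 47.2 without RA (-0.25 ± 0.11, adjusted p = 0.21). With the replicate number as a block, the adjusted p in limma was 0.026 for Pdcd1 and 0.026 for Cd200. Pdcd1 also passed with limma voom on recovered reads, and so under 2 of its 10 alternatives. In Pdcd1, Tigit, Btla and Cd200, and in the 3 genes that passed in the main fit, the WT groups did not overlap, as in 53.8% of all tested genes. The antigen-presenting and myeloid markers summed to 29.9 and 184 FPKM in WT with RA and to 27.4 and 172 in WT without RA, so they separated replicate 1 from replicate 2 and not the doses.

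In the KO-labelled libraries, 0 of the 7 tested members passed the threshold for RA in limma, where 0.143% of all tested genes passed. Of the members 2 had an unadjusted p under 0.05, as had 10.7% of all tested genes, and with limma voom on recovered reads 0 passed as well. Cd96 came nearest, with 23.4 and 23.8 FPKM in KO-labelled libraries with RA and 17.1 and 16.8 without RA (0.46 ± 0.11, adjusted p = 0.17, unadjusted p = 0.0024). Lag3 had 19.3 and 18.3 FPKM with RA against 15.2 and 11.6 without RA (0.47 ± 0.15, adjusted p = 0.32). In both genes the groups did not overlap, as in 5 of the 7 members and 42.3% of all tested genes. The others had differences of -0.20 to 0.17 on the log2 scale, with 95% intervals within -0.61 to 0.54. Pdcd1, at 103 and 82.8 FPKM with RA and 95.9 and 70.3 without RA, showed the widest gap in FPKM between replicates of any member in these libraries.

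**Figure D2:**
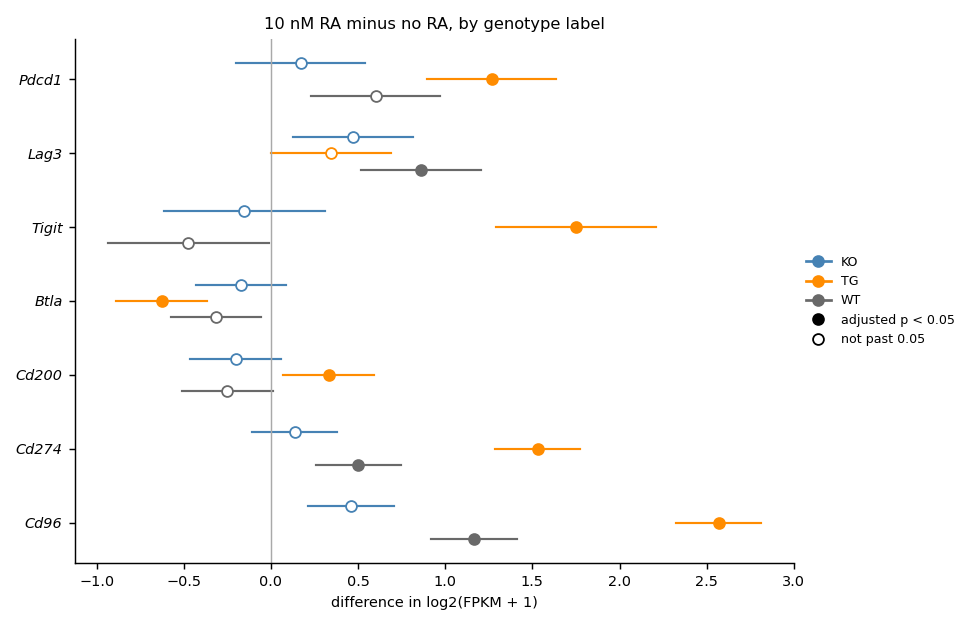
Difference between libraries with 10 nM RA and without RA for the 7 tested genes (horizontal axis, difference in log2(FPKM + 1)), in KO-labelled, TG and WT libraries. Lines are 95% confidence intervals from limma, and filled points have an adjusted p under 0.05. The TG points of Cd96 (2.57), Tigit (1.75), Cd274 (1.53) and Pdcd1 (1.27) lie right of the WT points, and the WT points of Lag3 and Btla lie right of their TG points.

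Whether the RA effect differed between genotypes was tested directly as the difference of the 2 differences. Against WT, the RA effect in TG was larger for Tigit by 2.23 ± 0.29 on the log2 scale (limma adjusted p = 0.0028), for Cd96 by 1.40 ± 0.15 (adjusted p = 0.0012) and for Cd274 by 1.03 ± 0.15 (adjusted p = 0.0052). These were 3 of the 7 tested members, 0 members had a smaller effect past the threshold, and 4.75% of all tested genes had a larger effect, 2.73% a smaller one and 7.48% either. All 3 passed under each of 14 alternatives. For Cd274 and Cd96 both effects were positive and that of TG was the larger, whereas for Tigit the effects had opposite signs. Cd200, whose effects also had opposite signs, missed the threshold (0.58 ± 0.16, adjusted p = 0.069, range over its alternatives 0.0045 to 0.20), as did Pdcd1 (0.67 ± 0.23, adjusted p = 0.13), Lag3 (-0.52 ± 0.21, adjusted p = 0.20) and Btla (-0.31 ± 0.16, adjusted p = 0.31). In the KO-labelled libraries 0 members had an RA effect that differed from that of WT past the threshold, where 0.00839% of all tested genes did. The largest such difference was that of Cd96, -0.71 with a 95% interval of -1.05 to -0.36 (adjusted p = 0.37, unadjusted p = 0.0014). It was 1 of 2 members with an unadjusted p under 0.05 in that comparison, where 5.37% of all tested genes had one, and with voom on recovered reads 0 members passed.

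With RA present, TG libraries differed from WT libraries in 5 of the 7 tested members: 4 were higher and 1 was lower, against 6.84% of all tested genes higher, 4.64% lower and 11.5% in either direction. The means were 14.3 FPKM in TG and 3.26 in WT for Tigit (1.85 ± 0.20, limma adjusted p = 0.00074), 49.2 and 23.6 for Cd96 (1.04 ± 0.11, adjusted p = 0.00057), and 15.7 and 9.28 for Cd274 (0.70 ± 0.11, adjusted p = 0.0042). Btla was lower, at 21.7 FPKM in TG and 36.4 in WT (-0.73 ± 0.11, adjusted p = 0.0047, range over its alternatives 0.0022 to 0.072), a call that ended with only the 4 libraries compared in the fit. Lag3 was higher, at 42.0 FPKM in TG and 25.6 in WT (0.69 ± 0.15, adjusted p = 0.021, range 0.0072 to 0.13). Its call ended without any 1 of the 4 libraries: WT 10 nM replicate 1 (0.70) or 2 (0.68), TG 10 nM replicate 1 (0.76) or 2 (0.62), and also with no filter. Pdcd1 and Cd200 did not pass. The groups did not overlap in 7 of the 7 tested members, as in 54.4% of all tested genes.

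Without RA the picture was another one. Lag3 was higher in TG, with 36.1 and 29.7 FPKM against 15.6 and 11.8 in WT (1.21 ± 0.15, limma adjusted p = 0.0048, range over its alternatives 0.0016 to 0.11), a call that ended with only the 4 libraries compared in the fit. Pdcd1 was lower, with 35.1 and 31.5 FPKM in TG against 58.6 and 64.1 in WT (-0.86 ± 0.16, adjusted p = 0.024, range 0.012 to 0.14). The Pdcd1 call ended without any 1 of the 4 libraries: WT 0 nM replicate 1 (-0.93) or 2 (-0.80), TG 0 nM replicate 1 (-0.94) or 2 (-0.79), and also with no filter, with a sex term (-0.76) and with only the libraries compared. These were the 2 members past the threshold, where 2.25% of all tested genes were higher, 2.06% lower and 4.31% either. Each of the 5 others had a negative difference, -0.43 to -0.33, and did not pass. Cd200 did pass with the replicate number as a block (limma adjusted p = 0.0060), and Cd274 (-0.50) and Cd96 (-0.53) did without TG 0 nM replicate 1. In 7 of the 7 tested members the groups did not overlap, as in 48.1% of all tested genes. Lag3 was the tested member whose TG mean was above its WT mean at both doses.

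KO-labelled libraries without RA had more Cd274 and Cd96 than WT libraries without RA, 2 of the 7 tested members, where 1.16% of all tested genes were higher, 0.579% lower and 1.74% either. Cd274 stood at 11.4 and 11.0 FPKM in KO-labelled libraries and at 6.08 and 6.44 in WT (0.75 ± 0.11, limma adjusted p = 0.014, range over its alternatives 0.0075 to 0.13). Cd96 stood at 17.1 and 16.8 FPKM against 10.0 and 9.82 (0.71 ± 0.11, adjusted p = 0.019, range 0.013 to 0.14). Replicates of each group lay close together in both genes. Both calls nevertheless ended without any 1 of the 4 libraries: the Cd274 difference was 0.72 and 0.79 without WT 0 nM replicates 1 and 2 and 0.73 and 0.77 without KO 0 nM replicates 1 and 2, and the Cd96 difference was 0.73, 0.70, 0.70 and 0.73 in the same order. With a sex term, which rests on the TG libraries alone, Cd96 did not pass (0.84, adjusted p = 0.097), and with only the libraries compared Cd274 did not (adjusted p = 0.061). Groups did not overlap in 4 of the 7 members, as in 47.7% of all tested genes. With RA present, 0 of the 7 members passed between KO-labelled and WT libraries in limma (and 0 with voom on recovered reads), where 0.881% of all tested genes did. Of the members 2 had an unadjusted p under 0.05, as had 11.1% of all tested genes. There the levels of Cd96 were 23.4 and 23.8 FPKM in KO-labelled libraries and 25.7 and 21.5 in WT, a difference of 0.01 with a 95% interval of -0.24 to 0.25, and 2 of the 7 members did not overlap, against 37.2% of all tested genes.

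**Figure D3:**
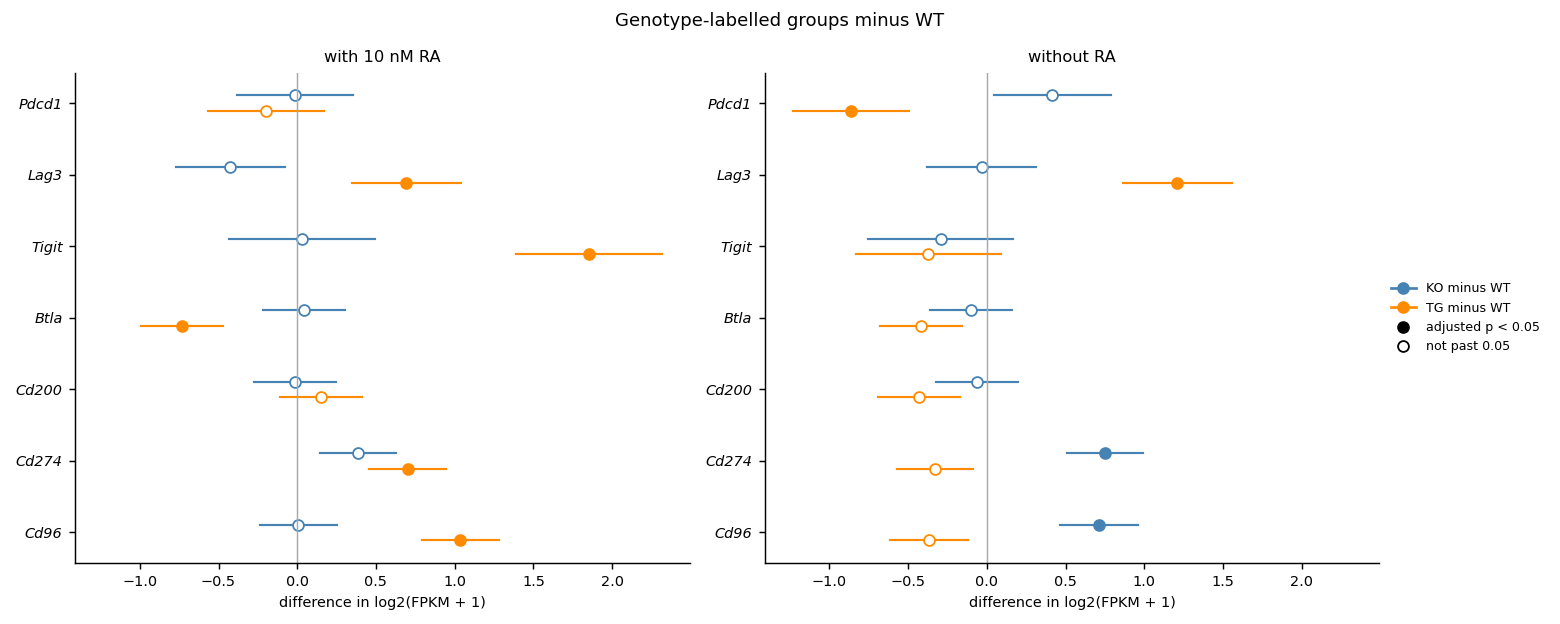
Difference of KO-labelled and TG libraries from WT libraries for the 7 tested genes (horizontal axes, difference in log2(FPKM + 1)), with 10 nM RA on the left and without RA on the right. Lines are 95% confidence intervals from limma, and filled points have an adjusted p under 0.05. With RA the TG points of Tigit (1.85) and Cd96 (1.04) lie far right and Btla (-0.73) far left, and without RA only Lag3 (1.21) and Pdcd1 (-0.86) are filled for TG.

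The order of the 6 groups followed from these differences. For Cd96 and Cd274 TG with RA had the highest mean (49.2 and 15.7 FPKM) and TG without RA the lowest (7.52 and 4.82), with WT without RA (9.92 and 6.26) next above it. In Cd96 the neighbours KO with RA and WT with RA overlapped, and all other neighbours were apart. In Cd274 all neighbours were apart. In Lag3 the TG groups held the first and second places and only the lowest neighbours, WT and KO without RA, overlapped. Tigit was apart only between TG with RA and the rest, and the other 5 groups, at 3.26 to 4.87 FPKM, overlapped with their neighbours. For Pdcd1 the top 4 groups, at 81.8 to 93.5 FPKM, overlapped with their neighbours, and WT without RA and TG without RA lay apart below them. Cd200 varied least, 1.35-fold between its highest and lowest group means.

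The summed level of the 10 members also differed. It was 276 and 258 FPKM in TG with RA and 156 and 143 in TG without RA. In KO-labelled libraries it was 235 and 218 with RA and 227 and 201 without RA, and in WT 226 and 233 with RA and 180 and 194 without RA. Cd96 made up 17.4 and 19.6% of the sum in TG with RA, against 5.44 and 4.59% in TG without RA. Btla made up 8.85 and 7.37% with RA, against 23.4 and 22.0% without RA. Pdcd1 was the largest single share in TG with RA, at 32.6 and 28.6%, and in all KO-labelled and WT libraries. It made up 44.0 and 37.9% in KO-labelled libraries with RA and 42.2 and 35.0% without RA. In WT its share was 39.9 and 41.5% with RA, against 32.6 and 33.1% without RA. In TG without RA, Pdcd1, Lag3, Btla and Cd200 each made up 19.1 to 25.2%, so no member led there.

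Of 13 ligands and binding partners of the members, 8 were tested. With RA in TG 4 rose, 2 fell and 2 did not pass, with a median difference of 0.27. Of all tested genes 19.7% rose and 19.4% fell there. Pdcd1lg2, which encodes PD-L2, had 19.9 and 18.5 FPKM in TG with RA, against 5.79 and 5.07 in TG without RA (1.65 ± 0.10, limma adjusted p = 7.9e-06), and its RA effect was larger in TG than in WT by 1.16 ± 0.15 (adjusted p = 0.0026). It thus had the same order as Cd274, the gene of the other PD-1 ligand, in TG and WT. Lgals9, the gene of galectin-9, had 52.1 and 43.1 FPKM with RA and 30.5 and 29.5 without RA (0.64 ± 0.08, adjusted p = 0.00033). The other 2 rises, named after their values were seen, were Tnfrsf14, the gene of HVEM (38.2 and 39.9 FPKM with RA, 20.1 and 16.2 without RA, 1.07 ± 0.16, adjusted p = 0.00091), and Cd48 (62.7 and 49.3 FPKM with RA, 34.8 and 34.7 without RA, 0.66 ± 0.14, adjusted p = 0.0056). The falls were those of Lgals3, the gene of the LAG-3 ligand galectin-3 (0.609 and 0.508 FPKM with RA, 8.15 and 9.21 without RA, -2.63 ± 0.20), and of Cd200r1, the gene of the CD200 receptor (0.176 and 0.232 FPKM with RA, 4.36 and 4.64 without RA, -2.19 ± 0.25). Reads of the closely related Cd200r genes may be divided among them. All 6 passed under all 10 alternatives. Lgals3 also fell with RA in KO-labelled libraries, from a mean of 8.78 to 2.63 FPKM (-1.43 ± 0.20, limma adjusted p = 0.043). That call passed under 3 of 10 alternatives. Without RA, Lgals3 averaged 8.68 FPKM in TG and 1.64 in WT. In WT, 3 of the 8 rose and 0 fell, where 6.67% of all tested genes rose and 3.47% fell. The 3 were Pdcd1lg2 (0.49 ± 0.10), Tnfrsf14 (0.64 ± 0.16) and Lgals9 (0.34 ± 0.08). Each of these calls ended without WT 0 nM replicate 1 (0.33 for Pdcd1lg2, 0.78 for Tnfrsf14, 0.34 for Lgals9) or WT 10 nM replicate 1 (0.52, 0.44 and 0.30), those of Tnfrsf14 and Lgals9 also without WT 0 nM replicate 2 (0.50 and 0.35), and those of Pdcd1lg2 and Lgals9 without WT 10 nM replicate 2 (0.46 and 0.38).

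**Figure D4:**
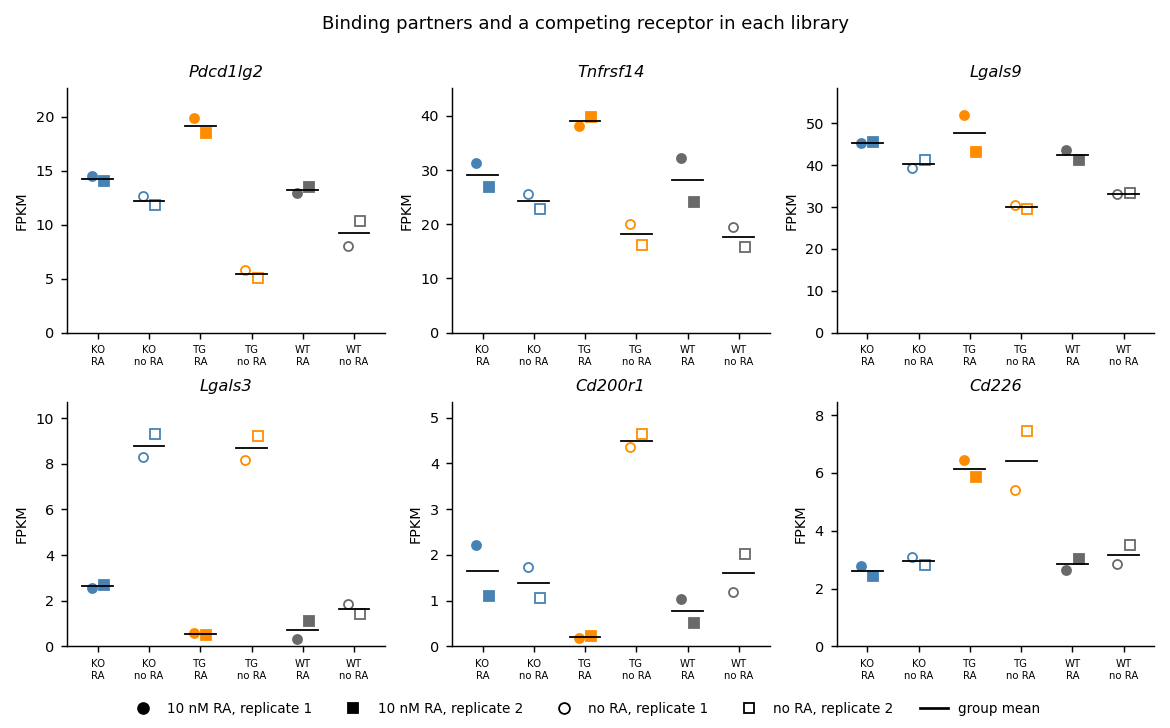
Level of 5 binding partners of the members and of the competing receptor gene Cd226 in FPKM (vertical axes, linear, starting at 0) in the 6 groups (horizontal axes). Symbols are single libraries, filled with 10 nM RA and open without, and lines are means of 2 libraries. Pdcd1lg2, Tnfrsf14 and Lgals9 are higher with RA in TG, Lgals3 and Cd200r1 are lower, and Cd226 is higher in TG than in WT at both doses.

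Among 5 activating receptors and ligands that compete with the members or oppose them, 1 rose, 2 fell and 2 did not pass with RA in TG. The shares of all tested genes were 19.7% higher and 19.4% lower. Cd226, whose product shares ligands with TIGIT and CD96, stood at 6.44 and 5.86 FPKM in TG with RA and 5.40 and 7.44 in TG without RA, and did not pass for RA. It was higher in TG than in WT with RA, where WT had 2.65 and 3.02 FPKM (0.90 ± 0.14, limma adjusted p = 0.0043), under all 11 alternatives. Icos, the gene of a relative of CD28, fell with RA in TG (7.03 and 5.39 FPKM with RA, 99.4 and 111 without RA, -3.89 ± 0.14) and in WT (17.0 and 13.8 FPKM with RA, 57.9 and 57.5 without RA, -1.85 ± 0.14). Tnfsf14, the gene of the HVEM ligand LIGHT, rose in TG (6.36 FPKM with RA and 2.40 without RA in the mean, 1.12 ± 0.14). Cd28 averaged 60.8 FPKM in TG with RA and 93.5 in TG without RA (-0.61 ± 0.19, adjusted p = 0.035, range over its alternatives 0.00029 to 0.17), but that call ended without any 1 of the TG libraries: 0 nM replicate 1 (-0.47) or 2 (-0.75), 10 nM replicate 1 (-0.68) or 2 (-0.53).

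Proteins that bind the tails of the members were tested for 8 of 9 genes. With RA in TG 5 rose, 0 fell and 3 did not pass, where 19.7% of all tested genes rose and 19.4% fell. The median difference of the 8 was 0.41. Ptpn6, which encodes the phosphatase SHP-1, had 103 and 93.8 FPKM with RA and 65.6 and 62.8 without RA (0.61 ± 0.06, limma adjusted p = 8.3e-05). Sh2d1a, the gene of the adaptor SAP, was low, at 2.87 FPKM in each TG library with RA and 1.22 and 1.05 without RA (0.86 ± 0.09, adjusted p = 0.00012). The kinase genes Fyn (0.52 ± 0.07) and Lck (0.49 ± 0.07) rose as well. In WT 2 of the 8 rose and 0 fell, where 6.67% of all tested genes rose and 3.47% fell.

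Of 8 tested genes among 11 other inhibitory receptors of T cells, 3 rose, 3 fell and 2 did not pass with RA in TG. These receptors thus did not move in 1 direction, and of all tested genes 19.7% rose and 19.4% fell. Among the falls was Havcr1, which encodes TIM-1 and whose role on T cells is not only inhibitory. Cd101 had 22.2 and 20.8 FPKM with RA and 11.4 and 6.97 without RA (1.18 ± 0.17, limma adjusted p = 0.00092). Lair1, the gene of a collagen receptor, averaged 1.69 FPKM with RA and 0.623 without RA (0.73 ± 0.10). Cd5 averaged 168 FPKM with RA and 372 without RA (-1.15 ± 0.14), and Cd6, which encodes a related scavenger-receptor protein, 122 and 224 (-0.87 ± 0.11). In WT 0 of the 8 passed for RA in limma, and 2 had an unadjusted p under 0.05, as had 25.8% of all tested genes. Ctla4, the co-inhibitory receptor that competes with CD28, was lower in TG than in WT with RA. It had 149 and 157 FPKM in TG against 299.7 and 328 in WT (-1.03 ± 0.11, limma adjusted p = 0.00079), and passed under all 11 alternatives. Without RA, Ctla4 was also lower than in WT in TG (-0.57 ± 0.11, adjusted p = 0.029) and in KO-labelled libraries (-0.59 ± 0.11, adjusted p = 0.046). Each of these calls passed under 4 of 11 alternatives. With RA, KO-labelled libraries averaged 206 FPKM and missed the threshold against WT (-0.61 ± 0.11, adjusted p = 0.058).

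Of 21 transcriptional regulators known to act on such genes 18 were tested. With RA in TG 7 rose, 4 fell and 7 did not pass, with a median of 0.0006. Among all tested genes 19.7% rose and 19.4% fell. Jun, a part of AP-1, had 53.4 and 52.9 FPKM in TG with RA and 20.7 and 18.0 without RA (1.42 ± 0.08, limma adjusted p = 4.3e-06). Nfatc1, which encodes a calcium-dependent factor that acts on Pdcd1, had 24.5 and 22.2 FPKM with RA and 11.9 and 9.95 without RA (1.04 ± 0.08, adjusted p = 2.9e-05). Tbx21, the gene of T-bet, had 17.0 and 14.7 FPKM with RA and 1.47 and 1.50 without RA (2.76 ± 0.29, adjusted p = 0.00014), whereas Irf4 averaged 249.9 FPKM with RA and 409 without RA (-0.71 ± 0.05, adjusted p = 8.3e-06). In WT 3 of the 18 rose and 1 fell, against 6.67% and 3.47% of all tested genes. There Tox, the gene of a factor linked to T-cell exhaustion, averaged 4.48 FPKM with RA and 1.72 without RA (1.00 ± 0.14, adjusted p = 0.0038, range over its alternatives 0.00036 to 0.075), a call that ended only with the WT libraries alone in the fit.

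Tigit, Btla, Cd200 and Cd96 lie within 2.471 Mb of chromosome 16 (43648867 to 46120251 on GRCm38), which holds 48 genes of the table, 20 of them tested. With RA in TG 1 of the other 16 tested genes was higher and 4 were lower. Of all tested genes 19.7% were higher there and 19.4% lower. Of the 4 members themselves, Tigit, Cd200 and Cd96 rose and Btla, which lies between Tigit and Cd200, fell. The Cd200 call (limma adjusted p = 0.048) passed under 5 of its 10 alternatives.

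The genes whose level most resembled that of a member over the 12 libraries were taken for the 4 members with the widest range of group means, by Pearson's r of log2(FPKM + 1). For Cd96 they were Mbnl2 (0.993), Pstpip1 (0.990) and Sh2d3c (0.989), which had group means of 55.0, 40.9 and 7.25 FPKM in TG with RA and 11.9, 11.0 and 2.15 in TG without RA. Those of Tigit were Hoxa4 (0.961), Xpnpep1 (0.949) and Tgfb3 (0.948), and Hoxa4 and Tgfb3 reached 2.57 and 1.79 FPKM in TG with RA and at most 0.221 in the other 5 groups. Lag3 was nearest to Pld2 (0.944), Fut11 (0.939) and Mboat1 (0.938), and Cd274 to Ramp1 (0.978), Agap2 (0.974) and Sh3bp5 (0.973). Each r describes 12 points that share 6 groups, and so rests largely on the differences between the groups.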

How the data were processed

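The authors deposited 1 table of FPKM per gene for 52635 genes and 12 libraries. Tools listed in the submitters' processing notes are STAR, HTSeq 0.6.1, Trimmomatic 0.32 and DESeq2, with the builds mm10 and GRCm38.p5 and no roles. The annotation release and the strand setting were not given in the sources used here. Libraries were stranded single reads of 100 bp, per the labels' protocols. Gene models came from GENCODE M21 on GRCm38. Depth was read from the steps that 1 read makes in FPKM times exon length (95.3 to 95.9% of values up to 20 reads lay within 0.02 of a whole number), is no count that the authors stated, and limits counting error only.

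Genes with at least 1 FPKM in at least 2 libraries (11922) were tested on log2(FPKM + 1) in R 4.3.3 by limma 3.58.1 (eBayes with a trend after lmFit and contrasts.fit), with 1 mean per group, 6 residual and 2.51 prior degrees of freedom. Two-sided p-values were adjusted by the method of Benjamini and Hochberg over all tested genes within each of 9 comparisons, at a threshold of 0.05. Folds on this scale understate the change of low genes. The model was run on simulated reads with known changes for RA in WT only and the same spread for every gene. That simulation held no shifts between replicates or sexes, so it does not vouch for the calls given here. The members, lists and motifs were chosen with earlier results of these data known. Beside the members, up to 4 called genes with the smallest p per list and comparison are named where described.

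Alternatives were a pseudocount of 0.1, no filter, upper-quartile scaling, only the libraries compared, the replicate number as a block, each library left out, limma voom on recovered reads and, for KO or TG against WT, a sex term from Xist. Protein sequences were not used here. Promoter windows came from RefSeq (GRCm38.p6). Tables were handled in Python 3.11.15 with pandas 2.3.3 and numpy 2.4.6, and figures drawn with matplotlib 3.10.9.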

Additional observations from a re-analysis of the deposited data

Results flagged for a closer look

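Whether the RA effect differed between TG and WT was tested as the difference itself, in limma on the log2(FPKM + 1) scale. This difference passed for 3 of the 7 tested members and 12 genes of the lists, and for 7.48% of all tested genes. The list genes were 3 of 8 tested partners, 1 of 5 competing genes and 1 of 8 tail-binding genes. Of other inhibitory receptors 3 of 8 passed, and of regulators 4 of 18. For the members the effect in TG minus that in WT was 2.23 for Tigit, 1.40 for Cd96 and 1.03 for Cd274. Among partners and competing receptors it was 1.16 for Pdcd1lg2, -1.98 for Lgals3, -1.64 for Cd200r1 and -2.04 for Icos. For the adaptor gene Sh2d1a it was 0.85. Other inhibitory receptors gave -0.91 for Cd5 and -0.72 for Cd6. Havcr1 of that list, whose role is not only inhibitory, gave -2.18. It was low, averaging 0.175 FPKM in TG with RA, 2.36 in TG without RA, 1.41 in WT with RA and 0.494 in WT without RA. The regulators gave 1.04 for Jun, 0.69 for Nfatc1, -0.33 for Irf4 and 1.88 for Tbx21. The calls of Cd5, Cd6, Cd200r1, Irf4 and Tbx21 ended under 7 to 9 of 14 alternatives, most of them with 1 library left out, and the other 10 passed under each of the 14. With 2 libraries a group, no group was large enough to single out a library.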

How the results depend on the processing

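Over 63 results of the 7 tested members, 714 values under alternatives were computed, of which 692 kept their direction and 646 also their side of the threshold. The 5 called members with RA in TG other than Cd200, Cd96 with RA in WT, and Tigit, Cd96 and Cd274 in the difference of RA effects passed under every alternative run.

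The count of called members moved by over 1.5 times for 3 comparisons. For RA in WT it was 3, 5 under the replicate block and 1 with only the libraries compared, and 1 to 3 with each library left out. For KO against WT without RA it was 2, 1 with the sex term, 1 with only the libraries compared and 0 with any library left out. For TG against WT without RA it was 2, 1 with no filter, 1 with the sex term, 0 with only the libraries compared, and 1 to 3 with each library left out. It moved by less for 3 others. For RA in TG it was 6, and 5 to 7 under the alternatives (Cd200 lost, or Lag3 gained with voom). For TG against WT with RA it was 5, or 4 where Lag3 or Btla was lost. For the RA effect in TG minus WT it was 3, or 4 where Cd200 was gained, with upper-quartile scaling and under the block.

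The number of all tested genes called, behind the percentages given, moved by over 1.5 times in every comparison except RA in TG, where it was 4662, and 3233 to 5215 under the alternatives. For RA in WT it was 1209, 142 with only the libraries compared and 342 without WT 0 nM replicate 2, and for RA in KO 17, 0, 6 without KO 10 nM replicate 2, 30 with no filter and 73 under the block. For KO against WT it was 207 without RA (26 with only the libraries compared, 35 with the sex term, 31 without WT 0 nM replicate 2, 479 under the block) and 105 with RA (14, 28, 44 without KO 10 nM replicate 1, and 174). For TG against WT it was 514 without RA (47, 200, 131 without TG 0 nM replicate 2, and 823) and 1369 with RA (422 with only the libraries compared, 626 without TG 10 nM replicate 2). For the RA effect in TG minus WT it was 892, and 469 without WT 0 nM replicate 2, and for that in KO minus WT it was 1, and 21 with no filter.

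Signs reversed only where a difference was small and not called. With the sex term, KO minus WT without RA became 0.033 for Lag3, 0.0014 for Tigit and 0.18 for Btla, and with RA 0.20 for Pdcd1. With each library left out, the ranges that crossed 0 were, for RA in KO, -0.051 to 0.39 (Pdcd1) and -0.40 to 0.10 (Tigit). For KO minus WT without RA they were -0.22 to 0.15 (Lag3) and -0.15 to 0.022 (Cd200), and with RA -0.17 to 0.15 (Pdcd1), -0.18 to 0.24 (Tigit), -0.12 to 0.088 (Cd200) and -0.12 to 0.13 (Cd96). For the RA effect in KO minus WT the range of Cd200 was -0.057 to 0.15. The cause was not tested.

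Same-numbered replicates share only a number in the labels. Their deviations correlated at 0.327 between doses in WT, 0.32 in KO and 0.147 in TG, but at 0.0035 to 0.206 between genotypes. Xist marked replicate 2 and not replicate 1 of TG at both doses. In WT, Cd74 had 12.4 FPKM with RA and 12.7 without RA in replicate 1, and 84.7 and 82.7 in replicate 2. The main fit did not pair libraries, and whether same-numbered libraries of a genotype shared a preparation was not tested. The replicate block was a term common to all genotypes, so it does not take up a shift between replicates that is particular to a genotype. It ended no call of a member. In limma it gave an adjusted p of 0.026 for Pdcd1 and 0.026 for Cd200 (RA in WT). For Cd200 it gave 0.0060 for TG minus WT without RA and 0.0045 for the RA effect in TG minus WT.

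Depth and the log2(FPKM + 1) scale limit what can be seen of Havcr2, Cd160 and Cd244, with at most 50 reads per library. A group left with 1 library is assumed to vary like the others.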
